A study of Mus musculus with 2 samples.

Results

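A set of 50 oligonucleotide probes was printed on 10 spots each of a mouse expression array, out of 20868 named probes in all, of which the other 20818 had 1 spot. The 50 were found by the form of their identifier and their number of spots, so no measured value entered the choice. Within this array design they are the only named probes for which each layer's genotype ratio was read more than once from the same RNA.

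The arrays compared skin of mice at postnatal day 3, separately for epidermis and dermis, which had been parted with the protease dispase (2.4 U/ml, 4 °C). Animals of genotype Casp-8 F/+ K5-Cre supplied the Cy3 channel and animals of genotype Casp-8 F/– K5-Cre the Cy5 channel, called F/+ and F/– below. All animals carried K5-Cre, and each channel held pooled RNA of 3 mice, or of 2 mice for the F/– dermis. There was 1 array per layer and no dye swap, so dye and genotype cannot be told apart and no test between genotypes or layers was possible. Every SD below is over the 10 spots of 1 probe on 1 array, all hybridized with the same pair of pools, and covers spot noise but neither animals, pools nor dyes.

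Caspase-8 is a protease that starts apoptosis downstream of death receptors and also restrains necroptosis, a lytic form of cell death. The keratin 5 promoter of K5-Cre is active in basal keratinocytes, the dividing cells of the epidermis, and F by convention marks an allele that Cre can inactivate, so that F/– keratinocytes can lose both copies. The – allele is carried by dermal cells as well. Epidermis is built mostly of keratinocytes, and dermis of fibroblasts, vessels and their matrix. The question was in which layer transcript levels differ between the genotypes. The files give a manufacturer's number for each probe. No source used here pairs these numbers with genes, so 0 of the 50 could be matched. Probes are therefore given without gene, cell type marker or sequence, and the layers were not checked for purity.

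The 50 probes covered most of the brightness range. Their mean log2 signal over both dyes ran from the 5.55 to the 99.0 percentile of all probes on the epidermis array and from the 10.01 to the 98.1 percentile on the dermis array. On either array 20 of the 50 lay below the median brightness of all probes, and 12 (epidermis) and 8 (dermis) lay in the brightest 10%. No spot of the 50 was saturated, and the brightest had a signal of 42748. The mean signal of each probe passed a limit set at the 95th percentile of 162 negative control spots in all channels, except that of A_51_P396883 in F/– epidermis, which was 61.2 against a limit of 61.8. By mean log2 signal the 2 dimmest were A_51_P396883 and A_51_P309854 in the epidermis, and A_51_P213099 and A_51_P425205 in the dermis. The 2 brightest were A_51_P207591 and A_51_P147207 in the epidermis, and A_51_P271160 and A_51_P125260 in the dermis.

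In the epidermis the F/– signal was 2-fold or more above that of F/+ for 2 of the 50, where 0.934% of all probes did, and none read at least 2-fold lower, where 0.302% did. At 1.5-fold 6 probes were higher and 0 lower, against 2.5% and 1.85% of all probes. In the dermis, none passed 2-fold in either direction (0.235% of all probes higher, 0.0815% lower). With the loess used here none passed 1.5-fold there (0.57% and 0.69%). The counts are descriptions of 1 array per layer, and the probes past 1.5-fold are described singly below. Both median ratios of the 50 lay slightly above 0 on the log2 scale, at 0.048 for the epidermis and at 0.045 for the dermis, beside -0.0011 and -0.0041 over all probes. The quartiles of the 50 were -0.019 and 0.18 for epidermal ratios, and -0.0043 and 0.19 for dermal ones.

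**Figure D1:**
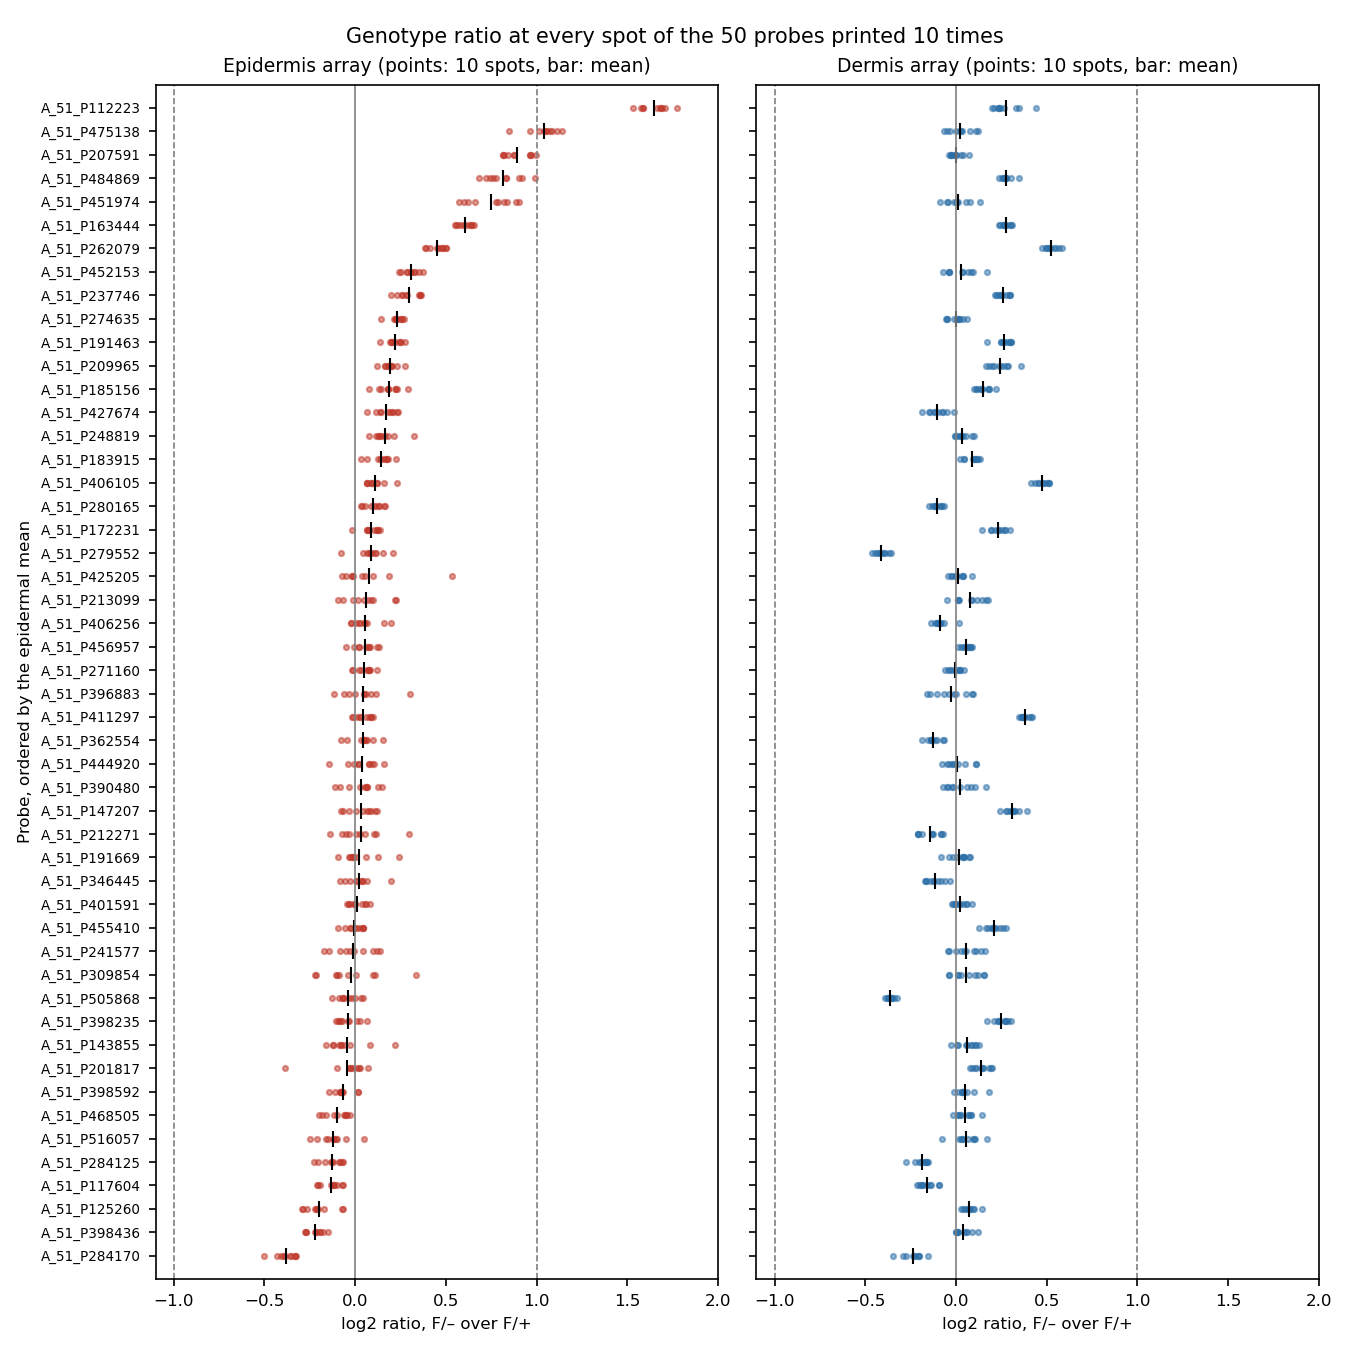
Log2 genotype ratio (F/– over F/+) of the 50 probes on the epidermis array (left) and the dermis array (right), with 1 point per spot, a bar at the mean of 10 spots and dashed lines at 2-fold. In the epidermis 6 probes from A_51_P163444 upward stand past 1.5-fold, and in the dermis the means lie between -0.41 and 0.53.

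A_51_P112223 had the highest epidermal ratio of the 50. Its log2 ratio over 10 spots ran from 1.53 through a median of 1.67 to 1.78, with a mean of 1.65 ± 0.075 (SD, n = 10 spots), or 3.13-fold. All 10 spots were past 2-fold, and the next probe, A_51_P475138, lay 0.61 below it, more than the SD of either. Signals less local background were 212 ± 16.6 in F/+ and 480 ± 28.5 in F/– epidermis before the dyes were balanced. Its mean log2 signal stood at the 47.8 percentile of all probes. Its dermal spots ran from 0.20 to 0.44, with a mean of 0.27 ± 0.077. They were all above 0 and did not overlap the epidermal spots.

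A_51_P475138 stood just past 2-fold. Its epidermal spots ran from 0.85 through 1.05 to 1.14, with a mean of 1.04 ± 0.082, and 8 of 10 reached 2-fold. Read from 1 spot, this probe would thus have been counted or missed depending on the spot. Its signals were 733 ± 111 in F/+ and 959 ± 119 in F/– epidermis before the dyes were balanced. Without normalization its epidermal log2 ratio was 0.37, where the median of all probes was -0.56. In the dermis its spots fell on both sides of 0, from -0.065 to 0.12, with a mean of 0.024 ± 0.065.

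A_51_P207591 was the brightest of the 50 on the epidermis array, with signals of 26415 ± 1889 in F/+ and 39313 ± 2252 in F/–. Its spots ran from 0.81 through 0.88 to 0.996, with a mean of 0.89 ± 0.072, and none reached 2-fold. In the dermis its mean was -0.00047 ± 0.037. Its ratio differed with the normalization: in the authors' deposited table it is 0.23 ± 0.11 on the log2 scale, and with a loess span of 0.1 it was 0.58, so it was under 1.5-fold in either case. With one median factor per array it was 1.13, past 2-fold.

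A_51_P484869, A_51_P451974 and A_51_P163444 completed the 6 probes past 1.5-fold in the epidermis. The spots of A_51_P484869 ran from 0.68 through 0.81 to 0.99 (mean 0.82 ± 0.098), and those in the dermis from 0.23 to 0.35 (mean 0.28 ± 0.031). A_51_P451974 ran from 0.57 through 0.78 to 0.91 in the epidermis (mean 0.75 ± 0.12), but from -0.088 to 0.13 in the dermis (mean 0.0099 ± 0.065). A_51_P163444 had 0.60 ± 0.039 and 0.27 ± 0.026, and 6 of its 10 epidermal spots were past 1.5-fold. For each of these 3 probes all epidermal spots lay above all dermal spots. Outside the 6, the highest epidermal mean was that of A_51_P262079, at 0.45 ± 0.043, and its spots did not overlap those of A_51_P163444.

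At the low end of the epidermal order with the loess used here stood A_51_P284170. Its spots ran from -0.50 through -0.37 to -0.33, with a mean of -0.38 ± 0.055 or 1.30-fold lower in F/–, and signals were 7794 ± 555 in F/+ and 3884 ± 315 in F/– before the dyes were balanced. It was followed by A_51_P398436 at -0.22 ± 0.043, a gap of 0.16 that exceeded both SDs. A_51_P125260 (-0.20 ± 0.080) and A_51_P117604 (-0.13 ± 0.053) came next and overlapped it. In the authors' deposited table this order and the gap are lost. There A_51_P284125 (-0.40) and A_51_P147207 (-0.38) are lower than A_51_P284170 (-0.37), and A_51_P125260 is at -0.36. In the dermis A_51_P284170 was again below 0 in all 10 spots, with -0.24 ± 0.055.

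In the dermis the highest ratios were lower than in the epidermis, and, pooled over the 50, the spots of a probe lay closer together. A_51_P262079 was highest, with spots from 0.48 through 0.52 to 0.58 and a mean of 0.53 ± 0.034, or 0.45 ± 0.043 in the epidermis. A_51_P406105 followed with spots from 0.41 to 0.51 (mean 0.48 ± 0.034), against 0.11 ± 0.051 in the epidermis. A_51_P411297 had 0.38 ± 0.025 in the dermis and 0.044 ± 0.043 in the epidermis, and A_51_P147207 had 0.31 ± 0.041 and 0.033 ± 0.073. These 3 were higher in the dermis than in the epidermis in all 10 spot pairs. The dermal order differed with the normalization. Without it A_51_P147207 had 0.17 and A_51_P262079 had 0.11 in the dermis, where the median of all probes was -0.47. With one median factor per array A_51_P147207 was thus highest and past 1.5-fold, and A_51_P262079 lay at that limit. In the authors' deposited table A_51_P262079 is at 0.50 and A_51_P147207 at 0.17.

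Lowest in the dermis were A_51_P279552 and A_51_P505868. The spots of A_51_P279552 ran from -0.46 through -0.41 to -0.36 (mean -0.41 ± 0.033), and those of A_51_P505868 from -0.39 through -0.36 to -0.33 (mean -0.36 ± 0.019, the smallest SD of the 50 on that array). Both were near 0 in the epidermis, with 0.087 ± 0.074 and -0.039 ± 0.054. Both also had the highest F/+ levels in dermis over epidermis among the 50, as given below. A_51_P284170 and A_51_P284125 came next in the dermis, with -0.24 ± 0.055 and -0.19 ± 0.038.

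Along the order of the 50 means, most neighbours could not be told apart by their spots. Of the 49 gaps between neighbours, 7 epidermal and 7 dermal ones exceeded the larger SD of the pair. In the epidermis 5 of these 7 gaps lie among the top 8 probes, above A_51_P452153 (0.31 ± 0.041), with none between A_51_P451974, A_51_P484869 and A_51_P207591. All 10 spots lay above 0 for 18 epidermal ratios and below 0 for 6, and the dermal numbers were 18 and 10. The remaining 26 and 22 had spots on both sides.

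Between the layers, 10 probes were above 0 in every spot of both arrays, among them A_51_P112223, A_51_P163444, A_51_P262079 and A_51_P484869. A_51_P284170, A_51_P117604 and A_51_P284125 were below 0 in every spot of both. Across the 50 probes the mean ratios of the layers were weakly related, with r = 0.31 (Pearson) and rho = 0.28 (Spearman). The arrays share the same labelling direction, so any dye preference of a probe enters this relation, and no test is given.

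The epidermal less the dermal ratio was taken spot by spot between equal places on both arrays. It reached 2-fold upward for 2 probes, where 0.839% of all probes did, and downward for 0, where 0.283% did. At 1.5-fold it was 4 upward and 0 downward, against 2.72% and 1.59%. The largest were those of A_51_P112223, from 1.09 to 1.54 with a mean of 1.37 ± 0.13, and of A_51_P475138, from 0.83 to 1.15 with 1.02 ± 0.085. A_51_P207591 followed with 0.90 ± 0.048 and A_51_P451974 with 0.74 ± 0.092. For these 4 probes every spot pair lay above 0.6 with the loess used here. In the authors' deposited table A_51_P207591 is at 0.23 in the epidermis and -0.062 in the dermis, less than 1.5-fold apart. The most negative of the loess differences was that of A_51_P406105 at -0.36 ± 0.053, then A_51_P411297 at -0.34 ± 0.041, A_51_P398235 at -0.29 ± 0.065 and A_51_P147207 at -0.28 ± 0.038.

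Levels in the layers were compared within 1 dye, and so within 1 genotype, but between separate arrays. In F/+ skin the epidermal level was 2-fold or more above the dermal one for 5 of the 50, and as far below it for 5, where 10.3% and 10.8% of all probes did. In F/– skin 8 were higher and 5 lower, where 9.99% and 10.4% did. The 5 dermal probes were the same in both genotypes, and the 5 epidermal probes of F/+ skin were all among the 8 of F/– skin. With one median factor per channel in place of quantiles the F/+ count of higher probes was 9.

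A_51_P284125 was the most epidermal of the 50. Its level was higher in epidermis by 3.00 ± 0.12 on the log2 scale in F/+ (8.02-fold) and by 3.36 ± 0.11 in F/– (10.2-fold), with F/+ signals of 18278 ± 981 in epidermis and 1866 ± 148 in dermis. Its loess genotype ratio differed between the layers by only 0.060 ± 0.040, less than these levels would give. The cause was not tested. A_51_P411297 (1.57 ± 0.079 in F/+, 1.24 ± 0.091 in F/–), A_51_P262079 (1.18 ± 0.079 and 1.16 ± 0.072), A_51_P475138 (1.06 ± 0.44 and 2.00 ± 0.46) and A_51_P274635 (1.02 ± 0.15 and 1.29 ± 0.16) followed. The SD of A_51_P475138 was several times that of the others. On the dermis array its spot in row 1 and column 7 had a mean log2 signal of 7.11, where the other 9 ran from 8.07 to 9.10. Without that place its F/+ difference was 0.96, under 2-fold, and 4 probes in place of 5 were then higher in F/+ epidermis.

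A_51_P279552 was the most dermal, with epidermal less dermal levels of -3.33 ± 0.10 in F/+ (10.1-fold) and -2.91 ± 0.15 in F/– (7.53-fold), with F/+ signals of 642 ± 108 in epidermis and 6180 ± 594 in dermis. A_51_P505868 had -3.18 ± 0.17 and -2.79 ± 0.16, and A_51_P237746 had -2.64 ± 0.084 and -2.67 ± 0.12. A_51_P172231 and A_51_P163444 had -1.33 ± 0.13 and -1.33 ± 0.096 in F/+. Among these 5 probes the dermal genotype ratios pointed both ways, from -0.41 for A_51_P279552 to 0.27 for A_51_P163444, with a median of 0.23. For all 5 the sign of the layer difference was the same in both genotypes.

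With quantile-normalized levels, the 3 probes that passed 2-fold between layers only in F/– skin were A_51_P112223, A_51_P207591 and A_51_P452153. With one median factor per channel A_51_P207591 passed 2-fold in F/+ skin too, at 1.30. The values that follow are those with quantiles. A_51_P112223 differed by 0.56 ± 0.12 in F/+ and 1.83 ± 0.067 in F/–. A_51_P207591 differed by 0.71 ± 0.072 and 1.61 ± 0.12, and A_51_P452153 by 0.77 ± 0.18 and 1.001 ± 0.14, the last of these being at the limit. These differences and the genotype ratios come from the same 4 signals of a probe and are no separate evidence.

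**Figure D2:**
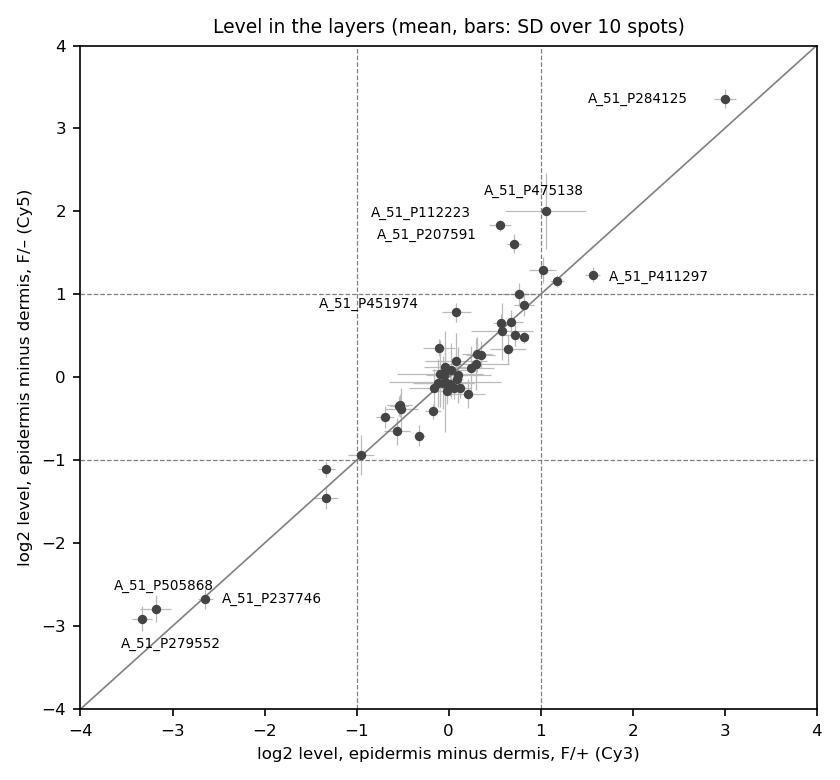
Log2 level in epidermis minus dermis of the 50 probes in F/+ skin (horizontal axis, Cy3) and F/– skin (vertical axis, Cy5), as mean and SD over 10 spots, with dashed lines at 2-fold and a line of equality. In both genotypes 26 of the 50 lie within 1.5-fold of 0, A_51_P284125 lies at 3.00 and 3.36, and A_51_P112223, A_51_P207591 and A_51_P475138 lie above the line.

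The spread between spots differed between arrays, and with brightness. The pooled SD of the log2 ratio was 0.079 in epidermal and 0.050 in dermal spots. Among the 17 dimmest of the 50 it was 0.10 and 0.066, in the middle 16 it was 0.066 and 0.040, and in the 17 brightest 0.059 and 0.039. The largest SDs in the epidermis were those of A_51_P425205 (0.18) and A_51_P309854 (0.17), both among the 4 dimmest by mean log2 signal, and the smallest those of A_51_P274635 (0.036) and A_51_P163444 (0.039). The SD of A_51_P425205 includes 1 spot of uneven pixels at 0.54, where the other 9 ran from -0.070 to 0.18. In the dermis the SDs ran from 0.019 for A_51_P505868 and 0.024 for A_51_P456957 to 0.078 for A_51_P390480 and 0.092 for A_51_P396883. Differences between probes made up 95.5% (epidermis) and 94.0% (dermis) of the variance of the 500 spot ratios.

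**Figure D3:**
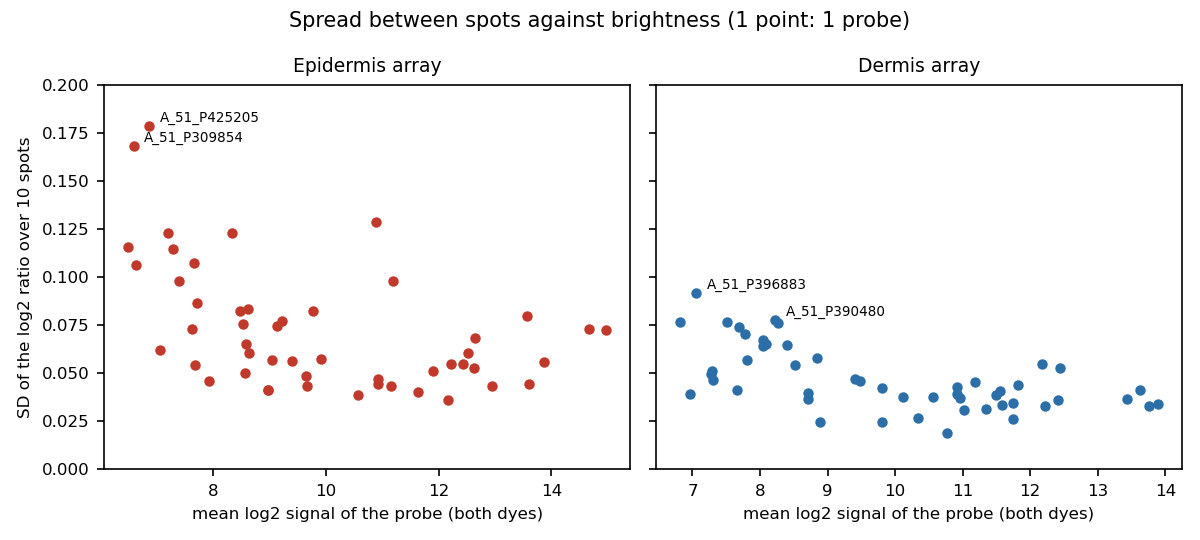
SD of the log2 ratio over the 10 spots of each probe against its mean log2 signal over both dyes, on the epidermis array (left) and the dermis array (right), with 1 point per probe. The SD falls from dim to bright probes on both arrays, and A_51_P425205 and A_51_P309854 stand highest on the epidermis array.

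Signals of single channels varied far more between spots than ratios did. The pooled SD of the log2 level was 0.22 in F/+ and 0.22 in F/– epidermis, and 0.20 and 0.19 in dermis. Deviations of a spot from the mean of its probe were correlated between the dyes over 500 spots, at 0.94 for epidermis and 0.97 for dermis. Both dyes are read from the same spot. A_51_P401591 shows what this does to 1 probe. Its mean log2 signal differed by 2.10 between its brightest and dimmest epidermal spots, with 3909 in F/+ and 2457 in F/– at row 67 and column 62, and 888 and 530 at row 73 and column 3. Its log2 ratio nevertheless stayed between -0.045 and 0.081, with an SD of 0.044.

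Part of the spread moved with place on the array. Spot deviations of the log2 ratio rose with the row number on both arrays, with correlations of 0.32 (epidermis) and 0.34 (dermis). They averaged -0.028, -0.0037 and 0.030 in rows 1 to 72, 73 to 144 and 145 to 215 of the epidermis array, and -0.016, -0.0057 and 0.021 in those of the dermis array. The mean log2 signal ran the other way, with correlations of -0.26 and -0.53. The same order was found in probes printed once, which are different probes in each of these ranges: their median log2 ratios were -0.017, -0.0027 and 0.019 (epidermis), and -0.019, -0.0068 and 0.011 (dermis). In 300 spots of control probes named E1A the correlation of the ratio deviations with row was weaker, at 0.098 (epidermis) and 0.15 (dermis). A straight trend with row and column described 10.8% and 13.1% of the variance of the ratio deviations, and without it the pooled SDs were 0.075 and 0.046.

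The trend was not equal in all probes. The ratio rose with row in 39 of the 50 in the epidermis and in 40 in the dermis. For A_51_P484869 the correlation over its 10 epidermal spots was 0.93: the spot in row 37 had the lowest ratio, 0.68, and that in row 170 had 0.90. From the first to the second of these the F/+ signal went from 2683 to 2076 and the F/– signal from 2712 to 2438. The highest ratio, 0.99, came from a spot in the array's first column (row 146) that was dimmer than the other 9 in both dyes on that array, with signals of 1422 and 1776. For A_51_P207591 the correlation was 0.95, and for A_51_P112223, the highest ratio of all, 0.31. The fitted change from the first to the last row was 0.082 (epidermis) and 0.055 (dermis) over the 50.

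Deviations at equal places of both arrays were also related. Over 500 places the correlation of the ratio deviations was 0.23, or 0.13 once the straight trend was taken out, and those of the mean log2 signal 0.46 and 0.34. These places share their position and the printed probe.

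**Figure D4:**
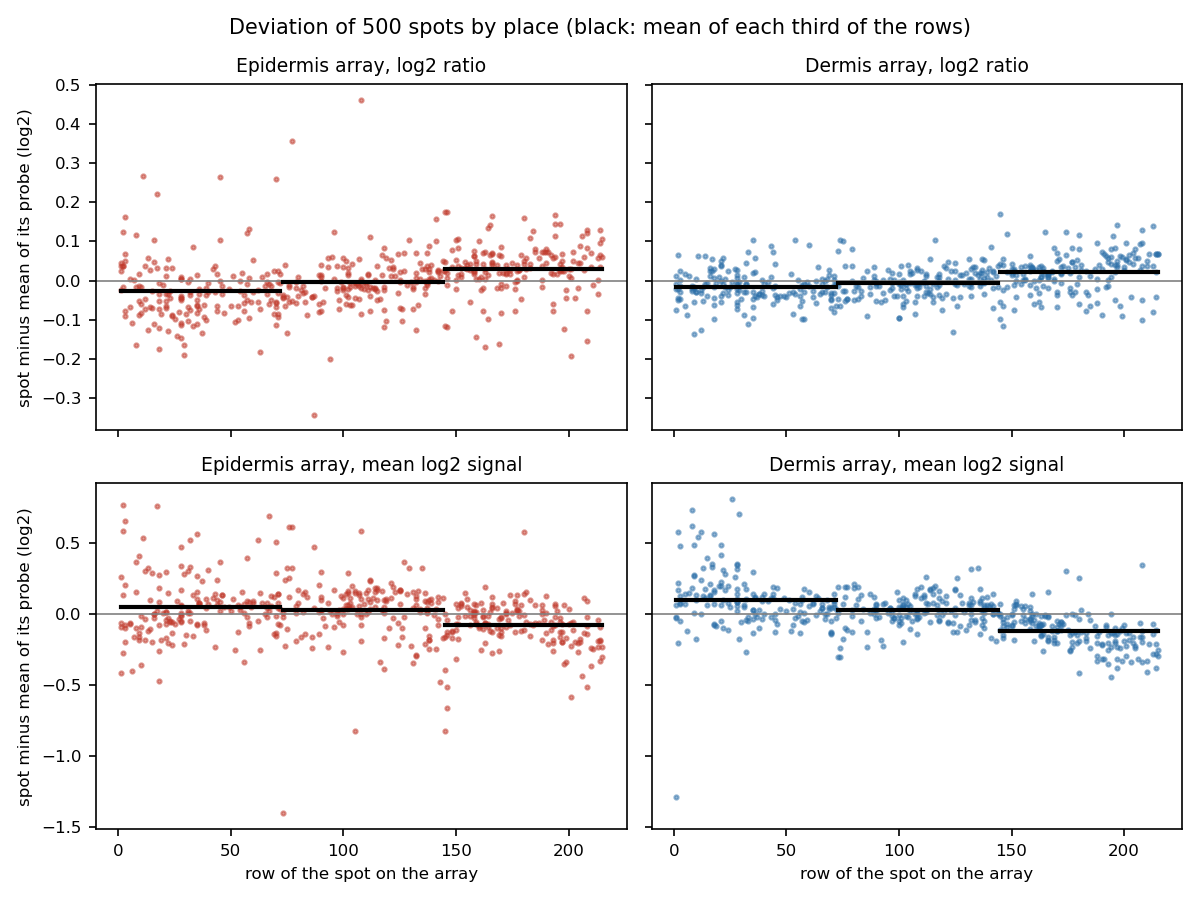
Deviation of each of 500 spots from the mean of its probe against the row of the spot, for the log2 ratio (top) and the mean log2 signal (bottom) on the epidermis array (left) and the dermis array (right), with black lines at the means of rows 1 to 72, 73 to 144 and 145 to 215. The mean deviation of the ratio rises from -0.028 to 0.030 (epidermis) and from -0.016 to 0.021 (dermis), and that of the signal falls on both.

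In the authors' deposited table, the ratios of most of the 50 were close to those given here. The deposited log10 values, put on the log2 scale, differed by less than 0.1 for 43 of the 45 epidermal probes with a mean log2 signal of 13 or less, and for 45 of 46 dermal ones. Above 13 the authors' deposited table was lower for all 5 epidermal probes, by 0.15 to 0.66, and for all 4 dermal ones, by 0.062 to 0.14. A_51_P147207 is at -0.38 in the epidermis in the authors' deposited table, where it had 0.033 here, and A_51_P284125 at -0.40, where it had -0.13. In the same table A_51_P112223 is higher than here, at 1.91 ± 0.10 in the epidermis over the 9 spots with a value, and normexp with offset 0 gave 1.92. For A_51_P475138 the authors' deposited table has 1.09 ± 0.090.

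**Figure D5:**
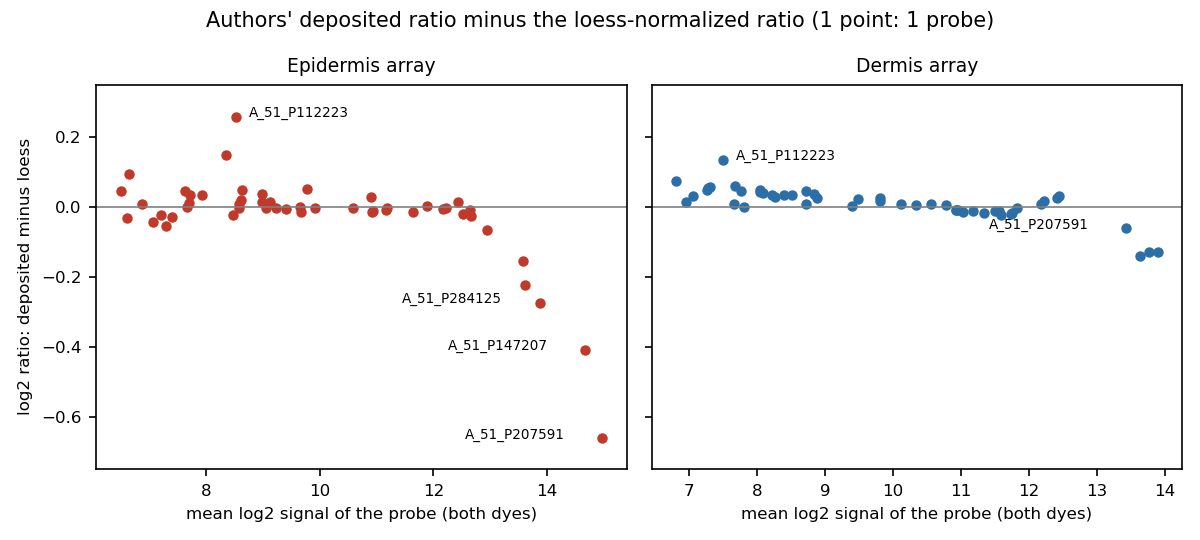
Log2 ratio in the authors' deposited table minus the loess-normalized log2 ratio, against the mean log2 signal of the probe, for the epidermis array (left) and the dermis array (right), with 1 point per probe. Points lie near 0 up to a signal of about 13, apart from A_51_P112223 and, in the epidermis, A_51_P451974, and fall to -0.66 for A_51_P207591 at the bright end of the epidermis array.

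Of the 500 epidermal spots of these probes, 15 have no value in the authors' deposited table, spread over 10 probes, and 0 of the dermal spots lack one. Uneven spots, with a pixel SD above 0.5 of the mean, numbered 6 in the epidermis, and all 6 were among those 15. In the dermis there were 0 such spots. The pooled SD between spots in the authors' deposited table came to 0.10 and 0.064 on the log2 scale, above the values given here.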

How the data were processed

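Gene expression in epidermis and dermis was measured on 1 two-colour array each. Per the file headers, the 4 deposited scanner files give each spot's mean and median pixel intensity and the same for the background around it, 1 dye per file. The scanner program (version 5.0) used a fixed circle, and the headers record no subtraction or normalization. The dye came from the image name in the header. The authors' deposited table was found to hold log10 ratios of Cy5 over Cy3: numbered down the array's columns, it gave a value to 0 control spots and regressed on unnormalized log2 signal ratios it had slopes of 0.298 (epidermis) and 0.308 (dermis) in the lower 9 of 10 deciles of signal. Its medians were -0.0025 and 0.0014. How the authors normalized is not given in these sources.

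In R 4.3.3 with limma 3.58.1, mean signals were corrected by normexp with the background median and an offset of 50, which shrinks ratios of dim probes, and normalized within each array by loess (span 0.3) over all 21318 probe spots, with other spots at weight 0. Ratios were averaged over 10 spots. Levels were quantile-normalized between the arrays within one dye over probe spots. Folds were called at 2-fold, with no test. Median signals of all probe spots were 501 and 311 (epidermis, Cy3 and Cy5) and 546 and 364 (dermis), over median backgrounds of 32.0 to 39.5, and 1 array per layer limits the precision. The computation was tested on simulated data. The rule for probes named was: past 2-fold, the 4 highest and 4 lowest ratios per layer and differences between layers, the 5 highest and 5 lowest level differences, and extremes of SD and brightness; other probes were named after their values were seen. The probes and lists were chosen with earlier results of these data known, although the rule for the 50 used no measured value. Lists of genes and markers could not be applied.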

Additional observations from a re-analysis of the deposited data

Results flagged for a closer look

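Among the 100 sets of 10 spots, 5 log2 ratios in the epidermis and 2 in the dermis lay far from the other 9 spots of their probe, by a gap of more than 0.466 of the range. Chance flags about 5% of such sets. In the epidermis these were the lowest spots of A_51_P201817 (-0.39, where the other 9 ran from -0.099 to 0.069), A_51_P172231 (-0.017) and A_51_P274635 (0.14), and the highest spots of A_51_P425205 (0.54, where the other 9 ran from -0.070 to 0.18) and A_51_P346445 (0.20). The spots of A_51_P201817 and A_51_P425205 had a pixel SD over 0.5 times their mean. In the dermis they were the lowest spot of A_51_P191463 (0.17) and the highest of A_51_P406256 (0.015). Without its odd spot the mean of A_51_P201817 was -0.0072 in place of -0.045, and that of A_51_P425205 was 0.024 in place of 0.075.

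For 3 probes all 10 spots lay on opposite sides of 0 in the layers with the loess used here, a difference that was not tested. A_51_P125260 had a ratio difference, epidermis minus dermis, of -0.27, A_51_P280165 one of 0.21 and A_51_P427674 one of 0.27. All 3 stayed under 1.5-fold in either layer. In the authors' deposited table A_51_P125260 is at -0.36 in the epidermis and -0.054 in the dermis, so that it no longer has opposite signs there. A_51_P280165 and A_51_P427674 keep opposite signs in that table. Without normalization A_51_P427674 had -0.458 (epidermis) and -0.426 (dermis), and A_51_P280165 had -0.563 and -0.593. The medians of all probes were then -0.555 and -0.473. With one median factor per array, each of these probes thus has mean ratios of the same sign in both layers.

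Control probes named E1A, 10 of them with 30 spots each, were used in no comparison of genotypes or layers. In both dyes 6 of them (epidermis) and 8 (dermis) exceeded the negative controls' 95th percentile. None reached 2-fold, and their pooled SD between spots was 0.096 and 0.080. The highest mean was that of E1A_r60_3 in the epidermis, with a log2 ratio of 0.21 ± 0.090 (SD, n = 30 spots).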

How the results depend on the processing

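No paired analysis was possible because each layer has 1 array. A loess span of 0.1, the removal of a trend with place and leaving out spots of odd signal were added after the data were seen. The counts of probes past 2-fold in the epidermis and in the difference between layers, 2 each upward, were 1 and 1 without normalization, 6 and 4 at 1.5-fold, and 1 and 0 at 3-fold; one median factor per array gave 1 for the difference and kept 2 in the epidermis, but with A_51_P207591 (1.13) in place of A_51_P475138 (0.93). Counts of lower probes in the epidermis, of either direction in the dermis and of downward differences were 0 under every setting run. Normexp with offset 0 raised the epidermal pooled SD from 0.079 to 0.11, where only the offset differs. In F/+ skin one median factor per channel gave 9 probes higher in epidermis than dermis in place of 5, whereas the median of the spots, and leaving out spots of odd signal, gave 4, without A_51_P475138. Counts of lower probes were 5 to 6 in F/+ and 4 to 6 in F/– skin, with A_51_P309854 gained under some settings and A_51_P163444 lost in F/– skin with one median factor. Thresholds change counts by construction, and for the median factors and for missing normalization the cause was not tested. For the 28 probes named by rule, 560 alternative log2 ratios were computed; 445 stayed within the spot SD of their probe and 115 did not. The sign changed in 52, of which 31 came without normalization, where the median of all probes was -0.56 (epidermis) and -0.47 (dermis); the others were of ratios no larger than 0.087 in size. No ratio past 2-fold changed sign. Dim signals limit the ratios, as the SD of the dimmest 17 probes shows.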
